A study of Homo sapiens with 17 samples.

Results

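The 2 control groups of a metabolic RNA labelling study of SNU-761, an established liver carcinoma cell line, were compared here: cells given DMSO (2 libraries) and cells given an isotype IgG1 antibody at 5 µg/ml (3 libraries), each for 4 h. They were chosen by their labels and make up 5 of the 17 libraries of the series. The study measured newly made RNA after VT107, an inhibitor of the TEAD transcription factors, and after intetumumab, an antibody against the alpha-v integrin subunit. DMSO was the control of 2 VT107 doses (0.1 and 2.15 µM, 2 libraries each) and the isotype antibody, a human myeloma IgG1 with a kappa light chain, was the control of 2 intetumumab doses (1.5 and 5 µg/ml, 3 libraries each). All of these cells were labelled as wild type and were given thiouridine. Each of the 2 experiments also had 1 library labelled as unlabelled, used here as the background. The amount of DMSO was described only as matched to VT107.

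The controls belonged to different experiments. The vehicle and the experiment therefore cannot be told apart in any value below: a gene that differed between DMSO and IgG1 may have differed with the agent or with anything else that was not the same in the 2 experiments. Nothing in the labels says that the replicates were separate cultures, and each p-value thus rests on library-to-library spread alone, which may be technical.

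In SLAM-seq, cells take up thiouridine and build it into the RNA they make during the labelling time. Iodoacetamide then alkylates the modified base, and sequencing then shows C at that T, so that reads with T-to-C conversions mark RNA made after labelling began. Some converted reads are also counted without thiouridine, as given below. The amount of such RNA from a gene follows its rate of synthesis, its loss during labelling and the number of T bases in the sequenced 3′ end. A vehicle control carries the solvent of a drug and an isotype control carries an antibody of the same class without the tested specificity; both set the level against which a treatment is read.

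The deposited table listed 19867 Ensembl gene IDs without names, and no ID could be paired with a symbol from the tables used here. Genes are therefore described by their rank or by ID, and the cell line's label was not checked against marker genes. The 5 control libraries held 751380 to 1103024 counts of converted reads, within the 435343 to 1778876 of all 15 labelled libraries. Of the listed genes, 13090 had a count in at least 1 control library and 10227 passed the filter on low counts and were tested. A gene counted in 1 control and near 0 in the other passed this filter through the group in which it was high.

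New RNA was more concentrated in few genes with DMSO than with IgG1. The most counted gene of each library held 2.67% and 2.96% of the counts in the DMSO libraries and 0.680%, 0.855% and 0.761% in the IgG1 libraries. The 10 most counted genes held 6.68% and 7.18% with DMSO against 4.86%, 5.10% and 4.95% with IgG1, a difference between the means of 1.95 percentage points (6.93% ± 0.353, SD, n = 2, and 4.97% ± 0.122, SD, n = 3). The 100 most counted genes held 21.4% and 21.8% against 18.9%, 19.3% and 18.8%. The DMSO libraries lay above all IgG1 libraries in each of these measures, by more than the spread within either control.

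The same difference showed in how many genes were needed to reach a given share. In the DMSO libraries 721 and 736 genes held 50% of the counts, and in the IgG1 libraries 845, 831 and 841 genes did. For 90% of the counts, 4762 and 4895 genes were needed with DMSO and 5010, 4980 and 5028 with IgG1. The effective number of genes, the exponential of the Shannon entropy of the shares, was 3427 and 3444 with DMSO and 3960, 3896 and 3962 with IgG1. A profile with an effective number of genes that is lower has its RNA spread over fewer genes. An exact two-sided permutation test over the 5 libraries gave p = 0.2 for each measure whose libraries did not overlap, the smallest it can give here, and 0.242 after Benjamini-Hochberg adjustment over 23 measures, so this design could not reach 0.05.

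**Figure D1:**
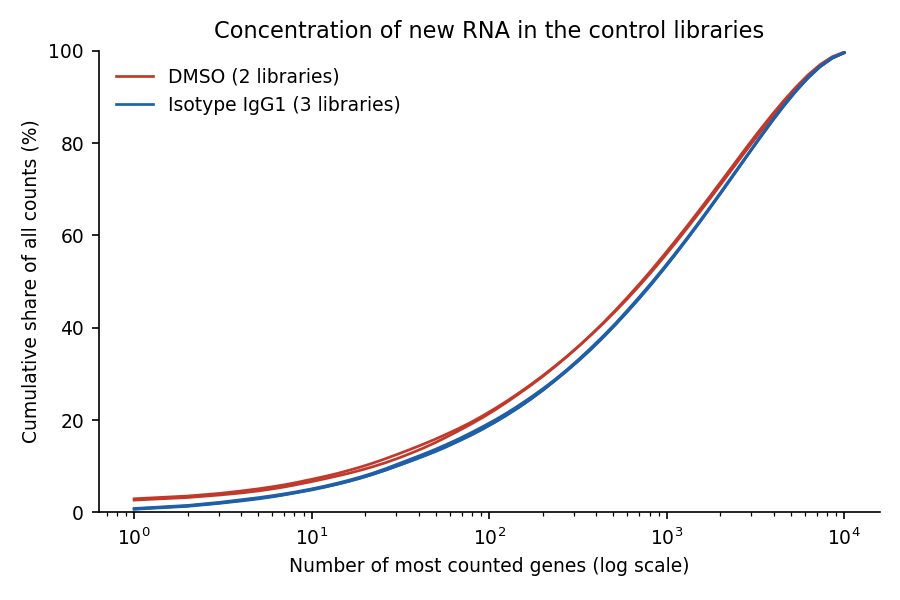
Cumulative share of all converted-read counts (percent, vertical axis) held by the most counted genes, ranked within each library (number of genes, log scale, horizontal axis); each line is 1 of the 5 control libraries. The 2 DMSO lines start at 2.67% and 2.96% and the 3 IgG1 lines at or below 0.855%.

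Much of the difference at the top came from 1 gene. Without the gene that was most counted in DMSO, the 10 most counted genes held 4.59% ± 0.158 (SD, n = 2) with DMSO and 4.77% ± 0.108 (SD, n = 3) with IgG1, and the libraries overlapped (exact two-sided permutation p = 0.4). The 100 most counted genes then held 19.4% ± 0.0839 against 18.6% ± 0.279, and 783 ± 15.6 against 850 ± 6.81 genes held 50% of the counts, and these libraries still did not overlap. The effective number of genes was then 3812 ± 51.3 against 3986 ± 36.1, where the means with the gene included were 3435 and 3939. The most counted gene that remained held 0.594% ± 0.0252 with DMSO and 0.769% ± 0.0883 with IgG1, which was the other direction, without overlap. The gene left out was chosen for its DMSO level, and IgG1 kept its own leading gene. This choice lowers the concentration of DMSO more than that of IgG1, so the values without the gene are a description and no test. The number of genes with any count overlapped between the controls, at 11111 and 11715 with DMSO and 11463, 11431 and 11673 with IgG1.

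The gene that led in DMSO was ENSG00000137331. It held 2.67% and 2.96% of the counts in the DMSO libraries and 0.524%, 0.575% and 0.570% in the IgG1 libraries, where it ranked 4. Its level was 29526 and 31664 CPM (counts per 1000000, here scaled by effective library size) with DMSO and 5285, 5834 and 5797 CPM with IgG1. Both DMSO libraries lay far above all IgG1 libraries. The fitted log2 fold change was 2.44 (SE 0.15), a 5.43-fold higher level with DMSO, with an adjusted p of 3.67e-07 from edgeR's quasi-likelihood test, the smallest of all genes tested. In the unlabelled library of the VT107 experiment it had 108 counts, which was 0.364% of its DMSO mean.

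The gene that led in IgG1 was another one. It held 0.680%, 0.855% and 0.761% of the counts with IgG1 and 0.375% and 0.423% with DMSO, where it ranked 9, and was lower with DMSO at -0.84 on the log2 scale (SE 0.18, adjusted p = 0.00735). Its counts in all labelled libraries were multiples of 4. With IgG1 it had 5120, 6424 and 7228 counts, which exceeded the 4773, 4900 and 6214 of the gene ranked second by less than 4-fold. Its first rank and the leading IgG1 shares therefore depend on these multiples. When each gene's counts were divided by such a common divisor, the difference between the controls in the share of the 10 most counted genes became 2.57 percentage points. The gene ranked second in IgG1 held 0.634%, 0.652% and 0.654% there and 0.306% and 0.254% with DMSO, where it ranked 14 (log2 fold change -1.10, SE 0.20, adjusted p = 0.00210). In both of these genes the libraries of the controls did not overlap.

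The controls shared much of their list of most counted genes but not its order. Of the 15 most counted genes of each control, 11 were shared, which gave 19 genes in all. They were ranked on the same libraries that were then tested, so the calls among them are a description. Of these 19, 7 were higher in DMSO and 4 were lower at an adjusted p under 0.05 (edgeR), and 15 did not overlap between the controls. Over all genes tested the same rule called 13.5% and 44.9% did not overlap. In the highest of 4 equal bins of tested genes by level, where all 19 lay, these shares were 26.4% and 57.2%. The gene ranked 3 in both controls held 0.561% and 0.553% with DMSO and 0.638%, 0.667% and 0.622% with IgG1, and the fitted log2 difference of its scaled level was -0.10 (SE 0.08, adjusted p = 0.426). The gene ranked 8 in DMSO and 6 in IgG1 held 0.373% and 0.445% against 0.437%, 0.427% and 0.403%, which overlapped (log2 fold change 0.05, SE 0.13, adjusted p = 0.819).

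Other genes near the top of the DMSO list were lower in IgG1. The gene ranked second in DMSO held 0.531% and 0.593% there and 0.260%, 0.265% and 0.255% with IgG1, where it ranked 20 (log2 fold change 1.21, SE 0.14, adjusted p = 6.45e-05). The gene ranked 6 held 0.449% and 0.416% against 0.196%, 0.182% and 0.180%, and the gene ranked 7 held 0.422% and 0.399% against 0.197%, 0.20% and 0.185%. Their log2 fold changes were 1.32 (SE 0.09) and 1.18 (SE 0.12), and in each of these 3 genes both DMSO libraries lay well above the IgG1 libraries. The gene ranked 15 in DMSO ranked 94 in IgG1, at 0.255% and 0.297% against 0.0908%, 0.0942% and 0.0985% (log2 fold change 1.64, SE 0.13); its counts were multiples of 3 in all labelled libraries.

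Among the leading genes of IgG1, those ranked 8 and 10 there stood at ranks 45 and 39 in DMSO. The first held 0.399%, 0.338% and 0.394% with IgG1 and 0.169% and 0.147% with DMSO (log2 fold change -1.15, SE 0.14, adjusted p = 0.000157). The other held 0.327%, 0.402% and 0.321% against 0.160% and 0.196% (log2 fold change -0.88, SE 0.18, adjusted p = 0.00545). The IgG1 libraries were thus above the DMSO libraries in both, by less than the leading DMSO gene differed in the other direction.

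**Figure D2:**
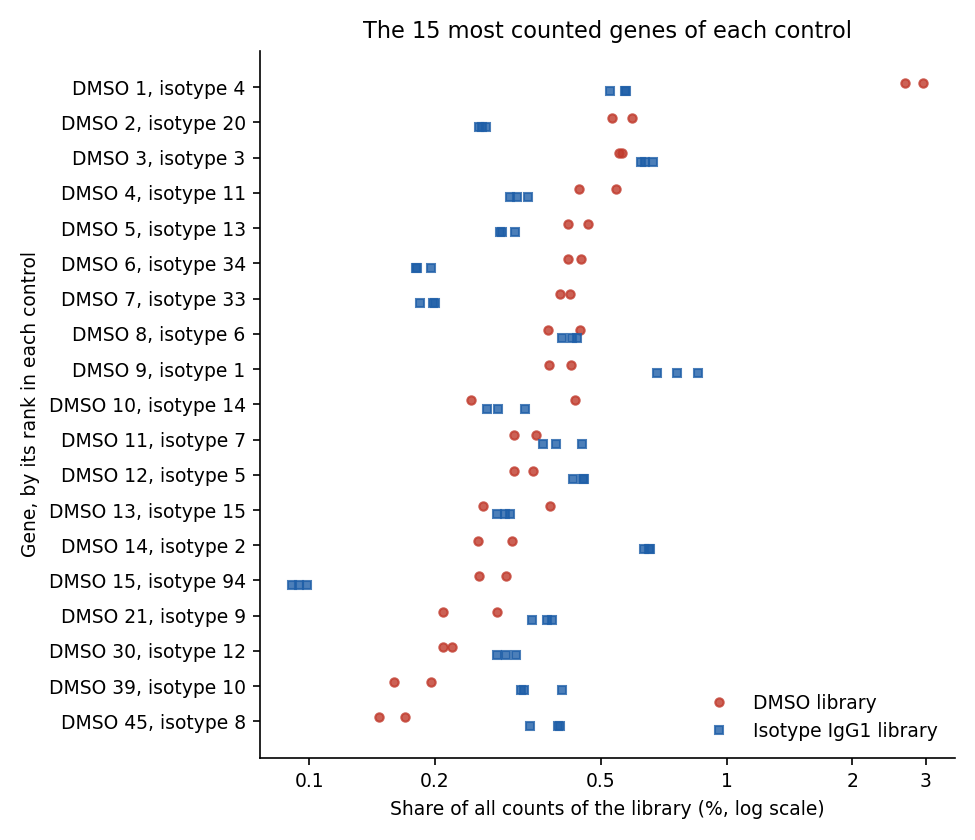
Share of all converted-read counts (percent, horizontal axis, log scale) of the 19 genes that were among the 15 most counted of DMSO or of IgG1, each labelled by its rank in the 2 controls; each point is 1 library. The gene ranked first in DMSO lies at 2.67% and 2.96% with DMSO and at 0.524% to 0.575% with IgG1, and 15 of the 19 genes do not overlap between the controls.

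Further down the lists the overlap stayed partial. The 10 most counted genes of each control had 4 in common (40% of each list), the 100 most counted had 61 (61%) and the 1000 most counted had 759 (75.9%). Of the 100 genes most counted in DMSO, 52 were called higher and 11 lower in DMSO; of the 100 most counted in IgG1, 16 were called higher and 36 lower. In all, 63 genes of the DMSO list and 52 of the IgG1 list were called. Over all genes tested 13.5% were called, 6.75% higher and 6.73% lower. The share called also rose with the level, as given below. The 100 genes most counted in DMSO on average held 21.4% of the DMSO counts and 16.8% of the IgG1 counts. Each list was ranked on libraries that were then compared, which favours genes that are high in that control. The direction of the calls within a list and these shares are therefore a description and no test.

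In all, 1378 of the 10227 genes tested differed between DMSO and IgG1 at an adjusted p under 0.05, with 690 higher in DMSO (6.75%) and 688 lower (6.73%). At an unadjusted p under 0.05 there were 2882 genes (28.2%). The genes higher in DMSO had a median log2 fold change of 1.35 (quartiles 1.03 and 1.91), or 2.55-fold, and 537 of them exceeded 2-fold. The genes lower in DMSO had a median of -1.40 (quartiles -1.93 and -1.08), or 2.64-fold, and 548 exceeded 2-fold. The median over all genes tested was -0.02. The count fell to 671 without DMSO replicate 1, of which 579 were among the 1378, and to 891, 880 and 850 without IgG1 replicates 1, 2 and 3.

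**Figure D3:**
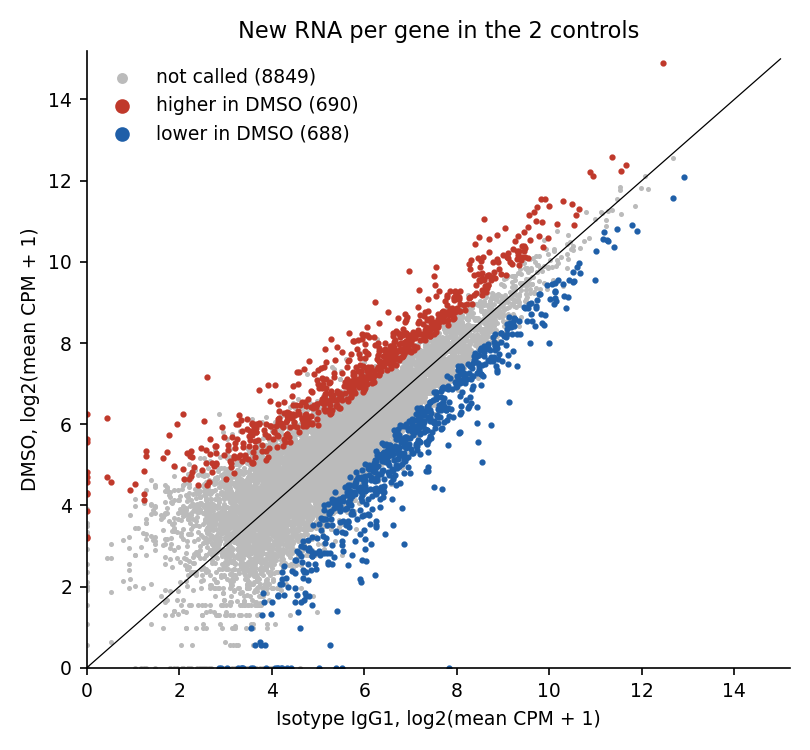
Mean level of each tested gene with IgG1 (horizontal axis) and with DMSO (vertical axis), both as log2(mean CPM + 1), with 1 point per gene and the called genes coloured by direction. The 690 genes higher in DMSO and the 688 lower in DMSO lie on both sides of the diagonal along the whole range of levels.

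Calls were more frequent among the genes with more counts. In 4 equal bins of the tested genes by mean CPM over all labelled libraries, from low to high, 4.50%, 8.56%, 14.4% and 26.4% were called, at median levels of 11.8, 28.6, 61.0 and 170 CPM. The size of the called changes went the other way, with median absolute log2 fold changes of 2.97, 1.89, 1.44 and 1.10. Each bin held calls in both directions, from 56 higher and 59 lower in the lowest to 344 higher and 331 lower in the highest. Smaller differences between the controls were therefore not detectable at this depth among genes of low level.

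The called genes carried a large part of the new RNA. The 690 genes higher in DMSO held 25.8% and 25.2% of the counts with DMSO and 11.4%, 11.3% and 11.4% with IgG1. The 688 genes lower in DMSO held 7.77% and 7.91% against 17.3%, 17.9% and 17.6%. These genes were chosen on the same libraries, so these shares describe the size of the difference and are no test of it.

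The 8 genes with the smallest p comprised 6 higher and 2 lower in DMSO. ENSG00000113368, which ranked 465 in IgG1 and 5740 in DMSO, had the smallest p of the lower ones. It had 22 and 42 counts in the DMSO libraries and 284, 271 and 351 in the IgG1 libraries, or 24.3 and 40.7 CPM against 380, 366 and 376 CPM. The IgG1 libraries lay close together and all well above the DMSO libraries. The log2 fold change was -3.51 (SE 0.27, adjusted p = 1.94e-06), an 11.4-fold lower level with DMSO, and the unlabelled libraries had 0 counts.

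ENSG00000125144 had the most negative fitted change and had no count in either DMSO library. The IgG1 libraries had 133, 204 and 216 counts, or 178, 276 and 231 CPM (228 ± 48.8, SD, n = 3). Set against a floor of 3 counts over the DMSO libraries, its level was at least 147-fold lower with DMSO (adjusted p = 2.81e-06). It was also at 0 in all 4 VT107 libraries, while the 9 labelled libraries of the intetumumab experiment had 66 to 216 counts each and the unlabelled one had 7. This gene therefore separated the 2 experiments in every labelled library, treated ones included.

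ENSG00000160191 had the most positive fitted change, with 91 and 52 counts in the DMSO libraries and 0 in all 3 IgG1 libraries. The adjusted p was 0.0207 with edgeR, and DESeq2 gave no adjusted p for this gene. The experiments were not separated, since 1 intetumumab library at 1.5 µg/ml had 78 counts, or 88.5 CPM, against 100.4 and 50.4 CPM in the DMSO libraries. All its counts, in 7 labelled libraries, were multiples of 13, so no bound on its fold is given, and the cause of the multiples was not tested. With counts divided by that number it did not pass the filter on low counts and was not tested. Its call was also lost without DMSO replicate 1 and without each IgG1 replicate, at adjusted p from 0.0537 to 0.0776.

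Many of the largest fitted changes were in genes at or near 0 in 1 control. Of the 12 largest increases among the 678 genes that qualified (called, not overlapping and at 20 CPM or more in the higher control), 6 were at 0 in all IgG1 libraries, and of the 12 largest decreases among 652, 5 were at 0 in both DMSO libraries. The counts of 4 of the former and 2 of the latter had a common divisor above 1 in every labelled library that counted them. Among the increases, 1 gene had 45 counts in the unlabelled library of the VT107 experiment, 100% of its DMSO mean. A stricter rule asked for such a divisor, counts in at least 8 labelled libraries and at least 20 counts in 1 of them. Over all genes tested, 1441 (14.1%) met it, and 206 of the 1378 called genes (14.9%) did. Genes that met it were thus not much more frequent among the calls. The 4 and 2 genes above were counted without these minimums, so they are not to be set against these shares.

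Over the whole table, 105 genes had no count in either DMSO library but a count in all 3 IgG1 libraries, with a median of 12 counts over the 3. Of these, 37 were tested and 21 called, against 13.5% of all genes tested, and 10 were also at 0 in every other labelled library of the VT107 experiment. In the other direction, 88 genes had no count with IgG1 and a count in both DMSO libraries, with a median of 7 counts. Of those, 17 were tested and 11 called, and 24 were at 0 throughout the labelled libraries of the intetumumab experiment. These genes were picked for being at 0 in 1 control and passed the filter through the other, so nothing is read from their share of calls. Most of them were counted too rarely to be tested.

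The treated libraries of the 2 experiments gave the same contrast without any control library. VT107 libraries against intetumumab libraries differ by agent as well as by experiment, and the tests share the fitted spread of each gene. Of the 10227 genes, 2768 (27.1%) differed between VT107 and intetumumab, with 1393 higher (13.6%) and 1375 lower (13.4%) with VT107. Of the 1378 genes called between the controls, 1321 (95.9%) had the same sign there, against 74.1% of all genes tested and 70.8% of the genes not called. The test called 934 of them in the same direction, 483 higher and 451 lower, which is 67.8% of the control calls and 33.7% of the treated calls, and it called 7 in the opposite direction. Without DMSO replicate 1 the number called in the same direction in both was 538. Without replicate 2 of VT107 at 2.15 µM the treated contrast called 1818 genes.

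Across the 10227 genes the log2 fold changes of the 2 contrasts had a Pearson r of 0.541 and a Spearman rho of 0.624, and over the 5114 genes of higher level 0.749 and 0.734. These are correlations across genes, which are not independent replicates, and both contrasts share the split by experiment. For the 690 genes higher in DMSO the median log2 fold change was 1.35 between the controls and 0.98 between the treated libraries. For the 688 lower genes the medians were -1.40 and -0.90. The genes were chosen by their fold change between the controls and not by that between the treated libraries. The treated libraries still entered the choice, through the filter, the scaling and the fitted spread of each gene. A fit of the control libraries alone called 987 genes, of which 907 were also called in the main fit. The treated values are therefore not a fully separate check.

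**Figure D4:**
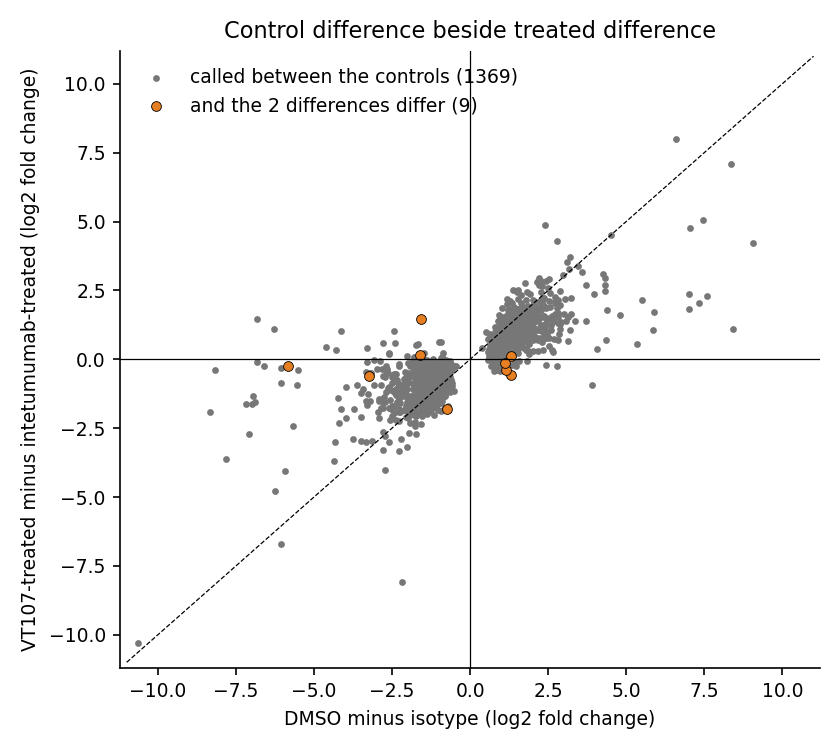
Log2 fold change between DMSO and IgG1 (horizontal axis) and between VT107 and intetumumab libraries (vertical axis) for the 1378 genes called between the controls, with 1 point per gene, a dashed line of equal values, and in orange the 9 genes in which the 2 contrasts differed by the test of the difference. Of the 1378 genes, 1321 have the same sign in both contrasts.

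Set against IgG1, the medians of the VT107 groups over these genes lay between DMSO and IgG1, and those of the intetumumab groups lay near IgG1. The median difference in log2(CPM + 1) from IgG1 over the 690 genes was 1.33 for DMSO, 1.01 for VT107 at 0.1 µM and 0.96 at 2.15 µM, and 0.03 and -0.08 for intetumumab at 1.5 and 5 µg/ml. Over the 688 genes it was -1.40, -0.92, -0.87, -0.03 and 0.05 in the same order. Per gene, the VT107 mean lay between the DMSO and IgG1 means in 505 of the 690 genes at either dose. It did so in 491 of the 688 genes at 0.1 µM and in 532 at 2.15 µM. Over all 10227 genes tested it did so in 3957 at 0.1 µM and in 4239 at 2.15 µM. All these values share the IgG1 libraries. The DMSO and IgG1 libraries were both used to choose the genes, which favours large DMSO values. A smaller median with VT107, or a higher count of genes between the controls, is therefore no test of a level between them. Over all genes tested the medians lay between -0.04 and 0.05.

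**Figure D5:**
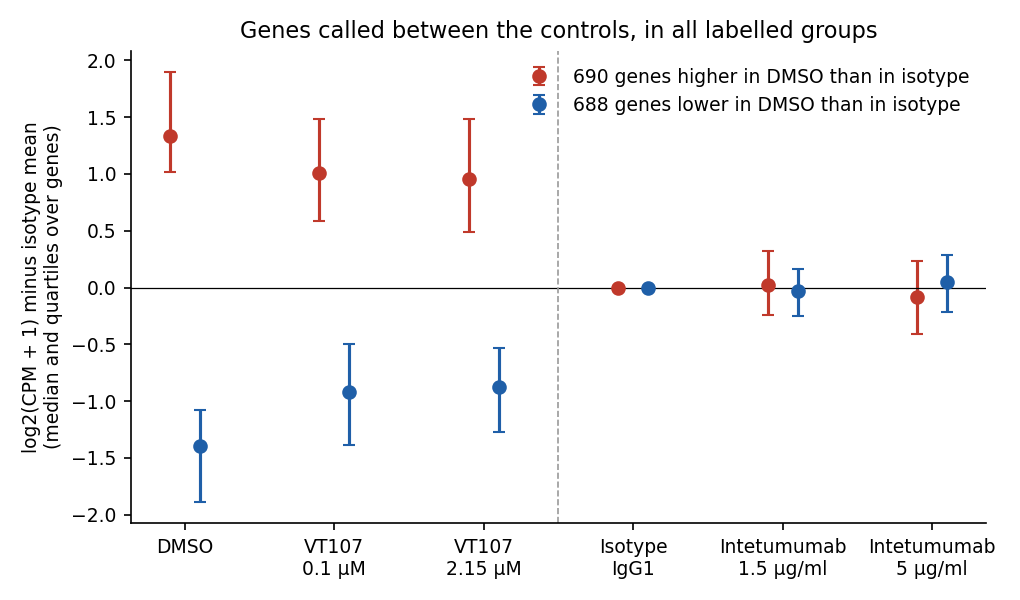
Difference in log2(CPM + 1) from the IgG1 mean (vertical axis) over the 690 genes higher and the 688 genes lower in DMSO, in each of the 6 labelled groups; points are medians and bars the quartiles over genes, and the dashed line parts the 2 experiments. The medians of the VT107 groups lie at 1.01 and 0.96 and at -0.92 and -0.87, and those of the intetumumab groups between -0.08 and 0.05.

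The share of counts held by these genes was also taken per group, with the same limit that DMSO and IgG1 libraries chose the genes. The 690 genes held 20.6% ± 0.342 and 19.3% ± 0.0203 (SD, n = 2 each) with VT107 at 0.1 and 2.15 µM, between the 25.5% ± 0.399 (SD, n = 2) with DMSO and the 11.4% ± 0.0689 (SD, n = 3) with IgG1. With intetumumab they held 10.95% ± 0.309 and 10.2% ± 0.497 (SD, n = 3 each). ENSG00000137331 stood at 15899 ± 1685 and 9922 ± 898 CPM with the VT107 doses and at 3606 ± 99.3 and 3239 ± 812 CPM with the intetumumab doses. It was called higher with VT107 than with intetumumab as well, with 1.88 on the log2 scale (SE 0.11, adjusted p = 1.87e-08). ENSG00000113368 was lower in VT107 than in intetumumab libraries, with -2.95 on the log2 scale (SE 0.18, adjusted p = 3.59e-08), at 32.2 to 72.9 CPM against 358 to 475 CPM.

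The difference of the 2 contrasts itself was called for 13 of 10227 genes (0.127%), 8 positive (0.0782%) and 5 negative (0.0489%), of which 9 were also called between the controls; 1001 genes (9.79%) had an unadjusted p under 0.05. The number varied with the method: it was 122 with DESeq2, which left 5155 of the genes without an adjusted p, 55 without the filter on low counts, 5 after thinning to equal totals and 3 with the replicate number as a block. The smallest adjusted p belonged to a gene at 1817 and 1365 CPM with DMSO against 630, 639 and 659 CPM with IgG1, 391 to 545 CPM with VT107 and 617 to 728 CPM with intetumumab. It was higher in DMSO than in IgG1 by a log2 fold change of 1.31 and lower in VT107 than in intetumumab libraries by -0.56, a difference of 1.87 (adjusted p = 0.000155). DMSO was thus the high group of the 6 for this gene.

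Another of the 13 was low in DMSO, with 8.83 and 5.82 CPM there, 62.1 to 74.9 CPM with IgG1 and 28.7 to 44.7 CPM with VT107. Its log2 fold change was -3.24 between the controls and -0.60 between the treated libraries. In another of them the controls differed by a log2 fold change of 0.17, not called, and the level was higher in VT107 than in intetumumab libraries by 1.51. The number of such genes depended on single libraries: it was 1 without DMSO replicate 1, without any 1 of the IgG1 libraries, without VT107 2.15 µM replicate 2 or without intetumumab 1.5 µg/ml replicate 2. It was 56 without DMSO replicate 2 and 27 without VT107 0.1 µM replicate 1. It was 4 when replicate 1 of VT107 at 2.15 µM was left out, likewise for replicate 1 of intetumumab at 1.5 µg/ml, 7 without intetumumab 1.5 µg/ml replicate 3, and 3 without replicate 1 or replicate 2 of intetumumab at 5 µg/ml.

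Counts without labelling were few in both experiments. The unlabelled libraries held 10702 counts (VT107 experiment) and 4553 counts (intetumumab experiment), which is 1.02% of the mean DMSO total and 0.556% of the mean IgG1 total. Unlabelled counts exceeded 10% of the control mean in 289 of the genes tested (2.83%) for DMSO and in 157 (1.54%) for IgG1. Among the 1378 called genes these were 40 (2.90%) and 20 (1.45%), close to the shares over all genes when both directions are pooled. The directions were not alike for DMSO, with 8 of the 40 higher and 32 lower in DMSO. Of the 20 for IgG1, 11 were higher and 9 lower in DMSO. A low control mean by itself raises this percentage, and the cause of the imbalance was not tested. Each experiment had 1 unlabelled library, so this background has no replicate check. The total read depth of the unlabelled libraries is unknown here, and a shallower library would also give few counts.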

How the data were processed

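RNA was alkylated with iodoacetamide and libraries were made with QuantSeq 3′ mRNA-Seq V2 FWD, per the labels' protocols. The authors used SLAM DUNK to count converted reads, as the series' design text states, on GRCh38, per the submitters' processing notes. They deposited 1 table of whole-number counts per Ensembl gene ID. Not given in the sources used here: the pipeline's version, annotation, conversion threshold and treatment of reads that map to several places. Counts of a 3′ tag do not scale with transcript length.

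Columns were matched to libraries by name. The 15 labelled libraries were fitted as 6 groups with edgeR 4.0.16 (R 4.3.3): filterByExpr with min.count 10, TMM scaling and the quasi-likelihood F-test of DMSO minus isotype, two-sided, with Benjamini-Hochberg adjustment over the 10227 genes tested and calls at an adjusted p under 0.05. The contrast of treated libraries and the difference of contrasts came from the same fit. CPM used TMM-scaled library sizes; shares used all deposited counts of a library. A count of 0 was set against a floor of 3 counts over the group. Bounds and floors cover counting error only. Exact permutation tests used SciPy 1.17.1. The scripts were tested on simulated data.

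Members and gene lists were chosen with earlier results of these data known. Text names the 15 most counted genes of each control, the 12 largest called changes in each direction at 20 CPM or more in the higher control, and the 8 smallest p-values; without symbols, at most 2 IDs per direction are printed. The planned gene lists and cell type markers were not tested, since 0 IDs could be paired with a symbol. Alternatives were DESeq2 1.42.0, other scalings and filters, leaving out genes with unlabelled counts over 10% of the control mean, thinning to equal totals, a replicate block, dividing by common divisors, the 5 control libraries alone, and leaving out each library.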

Additional observations from a re-analysis of the deposited data

Results flagged for a closer look

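The difference between DMSO and IgG1 was not the same as that between VT107 and intetumumab libraries in 13 genes, by edgeR's test of the difference of the 2 contrasts. The differences in log2 fold change were positive in 8 genes, at 1.87, 1.54, 1.21, 2.45, 1.08, 1.92, 1.27 and 0.96, and negative in 5, at -1.35, -2.64, -5.58, -1.78 and -3.03. The adjusted p was 0.000155 for the first of these, 0.0232 for the second, 0.0471 for the last and 0.0329 for the others. In the gene at -5.58 the DMSO libraries had 0 and 1 counts, so its fitted value depends on the prior count. The counts of the gene at 0.96 were multiples of 4 in all labelled libraries. The VT107 and intetumumab groups differ by agent as well as by experiment, and which of the groups moved was not tested.

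In the unlabelled libraries, 4 genes had at least 10 counts and more counts than the mean of the DMSO libraries, and 3 genes had more than the mean of the IgG1 libraries. For these genes the deposited counts without thiouridine were above the control mean with it, but only in the experiment in which the gene was picked. In the other experiment no gene among them had more unlabelled counts than the control mean.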

How the results depend on the processing

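The number of genes called between DMSO and IgG1 (1378) ranged from 987 in a fit of the 5 control libraries alone to 1605 with DESeq2, and from 671 to 1075 when 1 control library was left out. Scaling by total counts called 581 higher and 851 lower, DESeq2's size factors 742 and 586. The treated contrast (2768) ranged from 1818 to 2614 and the genes called in both (934) from 538 to 899 when 1 library was left out. The genes whose contrasts differed (13) numbered 122 with DESeq2 (5155 genes without an adjusted p), 55 without the filter, 5 after thinning, 3 with the replicate block, and 1 to 56 when 1 library was left out. The difference in the share of the 10 most counted genes (1.95 percentage points) was 2.57 with counts divided by their common divisors and 1.70 to 2.20 when 1 library was left out. Dividing counts that shared a divisor in 3 or more libraries, chosen after seeing the data, gave 1423 calls between the controls. The cause of these changes was not tested. Of 366 values for 23 named genes, 347 kept their direction and side of the threshold, 19 kept only their direction and 0 reversed. These genes were all called in the main fit. Settings in which a gene was not tested or had no adjusted p, as for ENSG00000160191, are not among the 366. Same-numbered deviations of the controls had correlations of 0.0199 and 0.0245. The deviations of 2 DMSO libraries mirror each other, so these are not separate checks, and they do not cover pairing within an experiment. With the replicate block 1037 genes were called. Differences of low genes are limited by depth.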

Other observations

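The IgG1 libraries were more alike than the DMSO libraries. Spearman's rho over the genes, a description across genes that are not independent, was 0.911 to 0.917 between IgG1 libraries, 0.859 between the DMSO libraries and 0.783 to 0.820 between the controls. The chi-square statistic of the counts per degree of freedom was 3.66 to 3.81 between IgG1 libraries, 8.52 between DMSO libraries and 15.1 to 18.1 between the controls. Reads amplified by PCR are not independent molecules, and counts in multiples of a common divisor raise this statistic, so its distance from 1 is no test. No replicate pair held identical values, and each library was counted as 1 replicate.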
